A study of Mus musculus with 69 samples.

Results

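The genes described here are the axon guidance ligands and receptors, taken as all gene symbols of the semaphorin (Sema3 to Sema7), plexin, neuropilin, Slit, Robo, ephrin, Eph receptor, netrin, Unc5 and Dcc families. Matching the symbols by name gave 69 genes of 55401 gene IDs in the tables of the young cohort and of older ovary, and 68 of them are among the 49585 gene IDs of the older pituitary and hypothalamus tables, where Ntn3 has no row under its ID. They are 20 semaphorins, 9 plexins, 2 neuropilins, 3 Slits, 4 Robos, 5 ephrins of class A, 3 of class B, 9 Eph receptors of class A, 5 of class B, 4 netrins and 5 netrin receptors. The rule uses symbols alone and no measured value, although the gene families were proposed with earlier results of these data known.

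Axon guidance proteins are cues on or around cells that attract or repel growing axons and migrating cells. Semaphorins bind plexins, with neuropilins as co-receptors for the secreted class 3. Slits bind Robo receptors, netrins bind Dcc and Unc5 receptors, and ephrins, which stay on the cell surface, bind Eph receptor tyrosine kinases on the neighbouring cell. In the hypothalamus and pituitary such cues are known for guiding the neurons that release gonadotropin-releasing hormone and for shaping vessels and epithelia, and many of the same genes act in the ovary.

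RNA was sequenced from pituitary, hypothalamus and ovary of female C57BL/6J mice of 3 genotypes, in 69 libraries and 18 groups. WT mice have 2 unaltered Zeb1 alleles, Zeb1_200H mice (200H) have 1 knock-in allele and Zeb1_200M mice (200M) have 2. The knock-in carries point mutations at the sites for miR-200a and miR-200b in the Zeb1 3′ UTR, so the allele of this transcriptional repressor gene lacks those sites in every cell of the animal, and the labels name no other treatment. Young mice were virgins of 8 to 12 weeks. Older mice were 28 to 36 weeks old at the end of a breeding trial, and all mice were taken at proestrus. The study reports that most females homozygous for the knock-in had no litters in that trial. It also reports few corpora lutea, which form in the ovary after ovulation, in such females of both cohorts. Within the older cohort, genotype thus goes together with breeding history. The labels do not give the litters of each mouse, and the part of breeding history in the older differences was not tested. The knock-in lines come from 2 embryonic stem cell clones, 6B6 and 3C5, both of which were used in each cohort, and the labels do not tie a library to a line. Libraries of a group come from different mice. Whether the tissues of a cohort come from the same mice is not given in the labels. Young RNA was depleted of ribosomal RNA and counted by strand, whereas older RNA was poly(A) selected and counted without strand, so age, breeding history and library chemistry cannot be told apart between cohorts.

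The mutation concerns the seed sites of 5 mature microRNAs, which are shown because the same seeds can be sought in the guidance genes. The sequences are RefSeq annotations on GRCm38.p6 and capitals mark the seed, bases 2 to 8. Those of miR-141 and miR-200a share the seed AACACUG, and those of miR-200b, miR-200c and miR-429 share AAUACUG.
mmu-miR-141-3p: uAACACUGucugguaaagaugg
mmu-miR-200a-3p: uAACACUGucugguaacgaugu
mmu-miR-200b-3p: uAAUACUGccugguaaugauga
mmu-miR-200c-3p: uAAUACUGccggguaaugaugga
mmu-miR-429-3p: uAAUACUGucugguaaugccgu

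The matching 8mers are CAGTGTTA for the first seed and CAGTATTA for the second. They were sought on the sense strand of every annotated 3′ UTR of each gene's protein-coding transcripts (GENCODE M21 on GRCm38), and a match in any of them counted. CAGTGTTA was found in 4 of the 69 members (5.797%) and in 4.017% of 21037 genes, and CAGTATTA in 7 members (10.145%) and in 3.365% of genes. At least 1 of the 8mers was in 10 members (14.493%) and in 7.002% of genes. The longest 3′ UTR of a gene had a median of 1629 nt in the members and 960 nt in all genes. The carriers are Sema3a, Sema3c, Sema6a, Slit2, Plxna4, Efna1, Efnb2, Epha2, Epha7 and Unc5d. The 30-base windows below, with the 8mer in capitals, belong to the carriers other than Sema6a that changed in pituitary, and lie on the minus strand for Unc5d and Efna1 and on the plus strand for Epha7 and Sema3c.
Unc5d, chr8:28651473-28651480: tttctccttaaCAGTATTAactcatagctt
Unc5d, chr8:28648067-28648074: ctgccccttatCAGTATTAacttcagcagg
Efna1, chr3:89272372-89272379: ctcaaaaggttCAGTATTAagggttttaac
Epha7, chr4:28965902-28965909: ttatcactgtaCAGTGTTAtttgatatttt
Sema3c, chr5:17728634-17728641: caacaaggatgCAGTATTAttaaagcattc

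Zeb1 acts on E-boxes, among them CACCTG and its reverse complement CAGGTG, so the 250 bases before annotated starts were searched for either spelling, which covers both strands. Of 75 such windows of the members 13.33% held one, and of 32851 windows of all genes 17.22%. By gene, 10 of 59 members with a window (16.95%) and 19.43% of 27025 genes held one. The windows of the members that fell in pituitary in both cohorts, and of Sema3d, which fell in ovary, are printed from RefSeq on GRCm38.p6 with the E-box in capitals. A match describes letters and not a bound site. The study gives the motif as CAGGTR, of which CAGGTA and its reverse complement TACCTG were not sought. Windows without capitals may therefore hold that form, and the window of Epha1 also holds TACCTG in lower case.
Epha1, chr6:42373269-42373518, minus strand: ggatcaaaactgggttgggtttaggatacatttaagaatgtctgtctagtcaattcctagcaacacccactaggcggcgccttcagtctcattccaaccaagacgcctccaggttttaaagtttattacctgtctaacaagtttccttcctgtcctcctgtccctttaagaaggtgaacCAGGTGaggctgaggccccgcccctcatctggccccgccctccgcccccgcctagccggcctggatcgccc
Plxnb1, chr9:109095186-109095435, plus strand: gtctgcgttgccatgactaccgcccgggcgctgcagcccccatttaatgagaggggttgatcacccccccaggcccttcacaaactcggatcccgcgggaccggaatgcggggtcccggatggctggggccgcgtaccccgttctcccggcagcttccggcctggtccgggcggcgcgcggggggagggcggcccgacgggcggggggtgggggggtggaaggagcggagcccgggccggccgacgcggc
Plxnb2, start at the gene's end, chr15:89180789-89181038, minus strand: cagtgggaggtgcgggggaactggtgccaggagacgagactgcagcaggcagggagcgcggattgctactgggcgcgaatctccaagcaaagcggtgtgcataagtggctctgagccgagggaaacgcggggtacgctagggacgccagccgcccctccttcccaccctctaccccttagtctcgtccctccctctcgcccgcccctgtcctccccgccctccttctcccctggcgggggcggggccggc
Plxnb2, inner start, chr15:89173952-89174201, minus strand: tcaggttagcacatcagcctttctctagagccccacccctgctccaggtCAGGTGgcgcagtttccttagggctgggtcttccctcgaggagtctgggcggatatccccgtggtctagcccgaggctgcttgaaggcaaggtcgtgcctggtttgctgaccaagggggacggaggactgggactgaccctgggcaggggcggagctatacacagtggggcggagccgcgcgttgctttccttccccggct
Sema3d, chr5:12382916-12383165, plus strand: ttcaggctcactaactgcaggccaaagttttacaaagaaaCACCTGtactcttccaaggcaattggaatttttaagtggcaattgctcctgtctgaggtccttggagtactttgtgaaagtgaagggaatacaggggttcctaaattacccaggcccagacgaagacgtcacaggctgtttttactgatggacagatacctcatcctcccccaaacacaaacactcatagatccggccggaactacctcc

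Epha1 held CAGGTG 71 bases before its start, the inner window of Plxnb2 held it 201 bases before the start, and Sema3d held CACCTG at 210 bases. The window of Plxnb1 and the outer window of Plxnb2 held neither spelling.

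Libraries held 3321845 to 14655095 counts in gene rows, with the shallowest in young hypothalamus at 3321845 to 5143128. Zeb1 was at 95.6 ± 2.57 CPM in young WT pituitary (counts scaled to 1000000 per library, mean ± SD, n = 3), 130 ± 4.11 in 200H (n = 4) and 138 ± 4.90 in 200M (n = 4), and at 58.8 ± 3.15, 73.8 ± 2.63 and 85.2 ± 6.08 in the older cohort (n = 4, 4 and 3). It was higher than WT in 200M by 0.52 (SE 0.06, adjusted p = 2.39e-05) and 0.55 (SE 0.09, adjusted p = 0.000833) on the log2 scale, and was not called in hypothalamus or ovary. Markers of hypothalamic neurons summed to 3080 to 3200 CPM in young and 3730 to 3980 in older WT hypothalamus, none of the 10 at 0. The summed CPM of 9 pituitary hormone and lineage genes fell from between 161000 and 185000 in young WT pituitary to between 66100 and 88700 in 200M, and from between 287000 and 330000 to between 164000 and 209000 in older pituitary, so the pituitary label holds and this sum moved with genotype. Of these genes Prl, Lhb, Cga and Pou1f1 fell in the young cohort, and Prl, Lhb and Cga fell while Pomc rose in the older one. All 9 were tested, with a median of -0.194 (young) and 0.002 (older) on the log2 scale, so the fall was not general among them. In such bulk tissue, fewer cells of a type and less RNA per cell cannot be told apart. The summed markers of macrophages (7 genes) went, with 3 (young) and 2 (older) of them called higher, from 43.5 to 54.3 CPM in WT up to 65.8 to 78.4 in 200M in young pituitary and from 99.6 to 125 up to 137 to 194 in older. Those of astrocytes and pituicytes (6 genes, 1 and 2 called higher) went from 43.7 to 49.7 up to 52.1 to 55.1 and from 40.7 to 48.1 up to 72.4 to 77.0. Those of hypothalamic neurons (10 genes, of which 2 rose and 1 fell in young and 4 rose in older pituitary) went from 844 to 911 up to 915 to 1070 and from 562 to 648 up to 810 to 892, with Pmch at 0 in older pituitary. Of the 10, 4 (young) and 5 (older) were tested, with medians of 0.012 and 0.53 on the log2 scale. Snap25 and Syt1 rose in both cohorts, Slc17a6 fell in young, and Slc32a1 and Oxt rose in older pituitary. Fibroblast and pericyte markers (8 genes) went from 792 to 913 down to 636 to 727 and from 885 to 1240 down to 668 to 852, with Col1a2 lower and 3 (young) and 2 (older) of the 8 higher. Endothelial markers (8 genes) lay at 246 to 285 in WT and 285 to 306 in 200M in young pituitary, with none of the 8 called, and at 324 to 439 and 378 to 466 in older, with 1 called. Summed oligodendrocyte markers (6 genes) went from 75.7 to 83.9 down to 46.5 to 54.6 in young pituitary. In older pituitary they lay at 72.6 to 104 in WT and 58.8 to 74.2 in 200M, which overlap. Of the 6, 3 were tested in each cohort, and Mbp was the 1 called, lower in both. Those tested had a median of 0.097 (young) and 0.006 (older) on the log2 scale, so the fall was not general among them. Pituitary stem cell markers (5 genes) went from 54.0 to 64.8 to 61.5 to 71.8 and from 67.2 to 70.5 up to 81.2 to 95.1. The part of these shifts in the guidance genes was not tested.

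The first question was how the guidance genes respond in pituitary, where Zeb1 was higher. In 200M against WT, 22 of the 62 members that passed the filter on low counts changed in young pituitary, 18 higher and 4 lower (edgeR quasi-likelihood test, Benjamini-Hochberg adjusted p under 0.05 over all genes tested, here termed called), which is 35.5% beside 21.5% of all genes tested. For all genes 11.5% were higher and 10% lower. In older pituitary 25 of 61 changed, 21 higher and 4 lower, which is 41.0% beside 21.4%, with 11.7% of all genes higher and 9.77% lower. The members tested had a median of 0.25 (young) and 0.28 (older) on the log2 scale, against 0.00 and -0.01 for all genes. Without 200M replicate 1 the older count was 16. Semaphorins were the largest group that rose, with 7 of 19 tested higher in young and 9 of 19 in older pituitary and 0 lower in either. Among plexins 2 rose and 2 fell in each cohort, of 8 tested. Of 3 Slits 2 rose in each. Class B Eph receptors rose in 3 of 5 and 2 of 5 and none of the 5 fell, and class A receptors were 1 higher and 1 lower of 7 in young and 5 higher and 1 lower of 8 in older pituitary. Of those higher in older pituitary, the class A receptor gene Epha3 and the semaphorin gene Sema3c passed the filter only through 200M, where they are high.

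**Figure D1:**
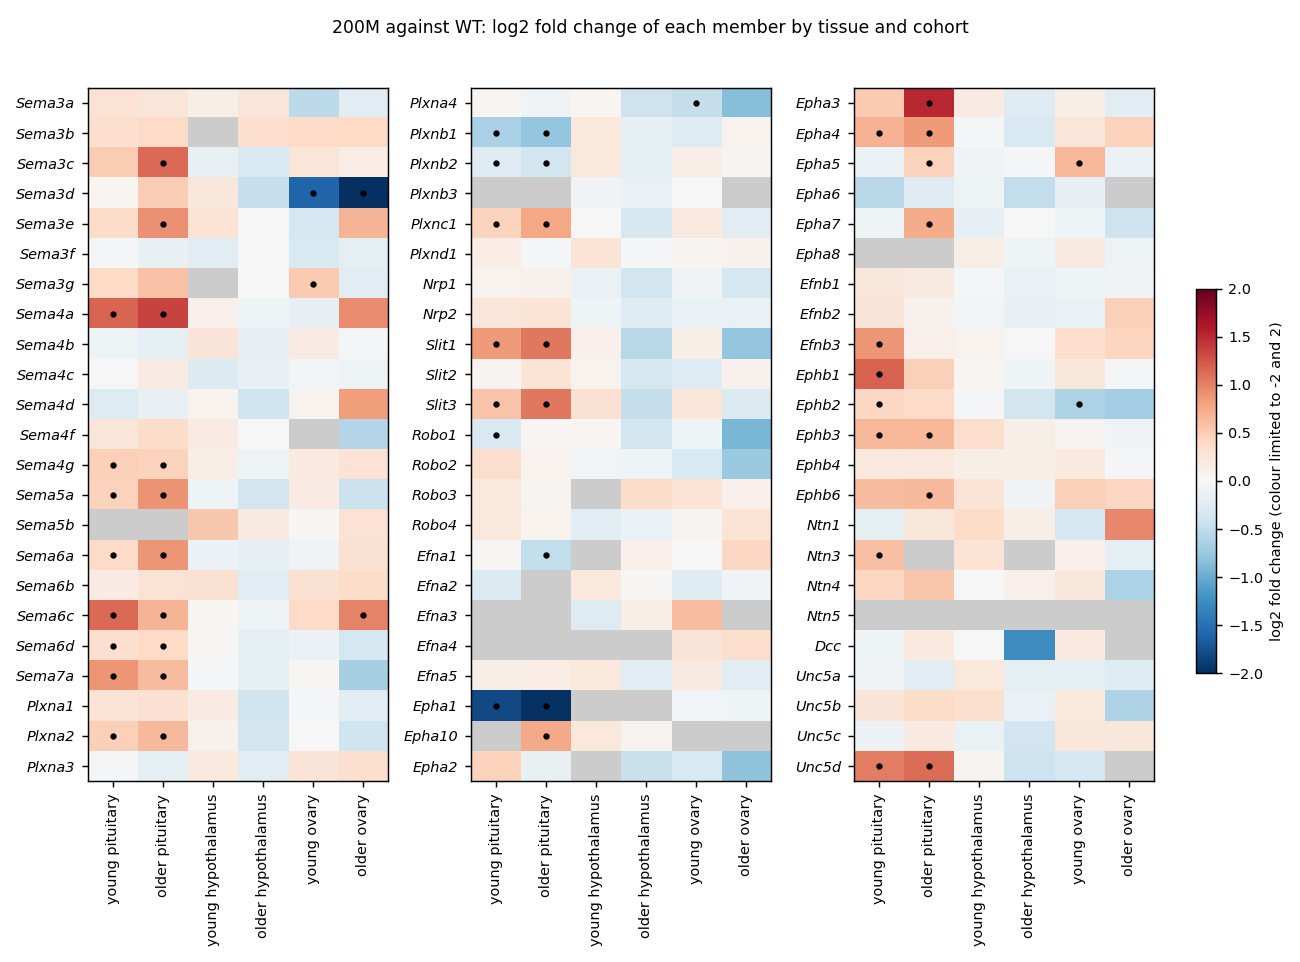
Log2 fold change of 200M against WT for the 69 members (rows, in 3 panels) in each tissue and cohort (columns), red for higher and blue for lower with the colour limited at -2 and 2, grey where a member was not tested and a dot where the adjusted p was under 0.05. Dots lie mostly in the pituitary columns (22 young and 25 older), with 5 in young ovary, 2 in older ovary and 0 in hypothalamus.

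The cohorts share no libraries. Of 60 members tested in both, 49 had the same sign (81.7%, with 77.0% for 14080 genes), and 17 were called in the same direction in both (28.3%, with 14.3% for all genes). These 17 are 14 higher and 3 lower genes and are described one by one. In 16 of the 17 in each cohort no 200M library overlapped a WT library, which in part follows from choosing members that were called. The share of all called genes without such overlap was not counted, so this shows nothing particular to the members. A test of the difference between the cohorts called 0 of 64 members by edgeR (0.0273% of all genes) and 0 by DESeq2. At an unadjusted p under 0.05 there were 9 members (14.1%, with 6.85% of all genes).

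**Figure D2:**
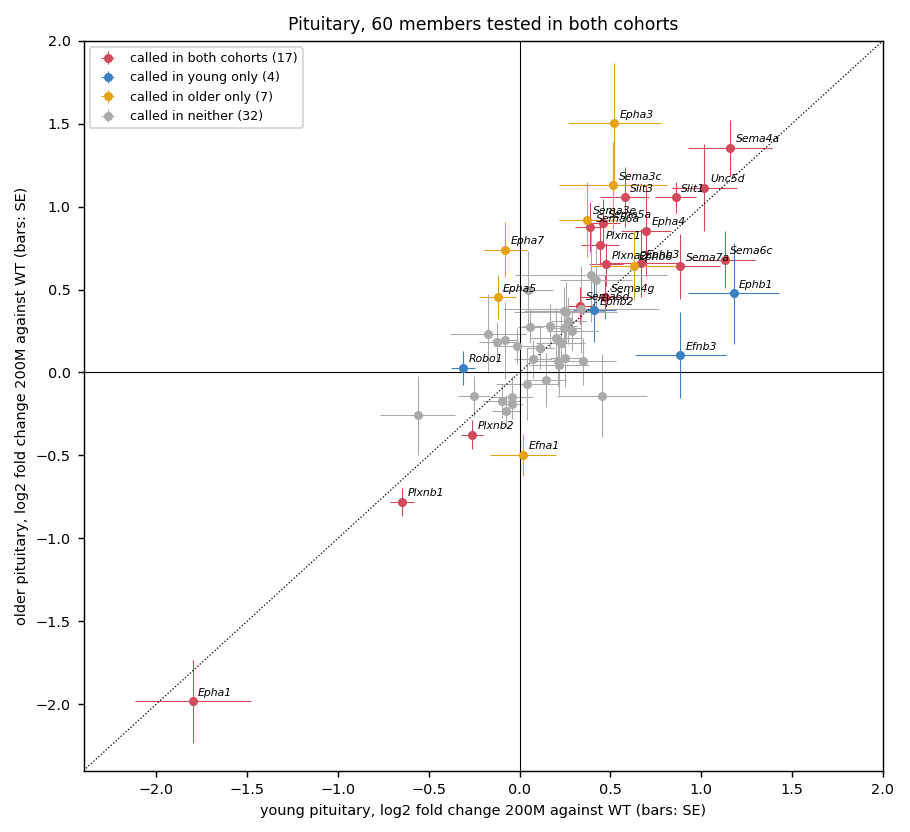
Log2 fold change of 200M against WT in young pituitary (x axis) and older pituitary (y axis) for the 60 members tested in both, with SE bars and a dotted line of equality. Of these, 17 were called in both cohorts, 4 only in young, 7 only in older and 32 in neither, and Epha1 lies farthest from 0 at -1.80 and -1.98.

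Sema4a (chr3:88435959-88461182, minus strand) encodes a transmembrane semaphorin that signals through plexins of classes B and D. Sema4a was at 2.56, 2.42 and 3.17 CPM in young WT pituitary, 4.43, 5.92, 5.57 and 5.28 in 200H and 7.53, 4.74, 5.77 and 6.42 in 200M. In older pituitary Sema4a was at 4.00, 5.08, 5.60 and 4.81 CPM in WT, 15.2, 8.96, 12.1 and 15.4 in 200H and 12.8, 11.6 and 12.7 in 200M. Every 200H and 200M library lay above every WT library in both cohorts. Sema4a rose by 1.16 (SE 0.23, adjusted p = 0.00216) in young 200M and 1.36 (SE 0.17, adjusted p = 0.000172) in older 200M on the log2 scale, and the 200H differences were 0.95 and 1.42 (adjusted p = 0.0148 and 0.000641). Sema4g (chr19:44989101-45003397, plus strand) belongs to the same transmembrane class. Young WT Sema4g was measured at 22.1, 15.1 and 18 CPM, with 21.8, 18.1, 34.7 and 22.4 in 200H and 25.1, 26.4, 22.8 and 28.6 in 200M. For Sema4g in older pituitary the values were 16.1, 22.5, 24.0 and 20.4 CPM in WT, 27.7, 28.7, 30.5 and 34.9 in 200H and 28.0, 29.6 and 26.6 in 200M. All 200M libraries lay above WT, whereas 200H overlapped WT in the young cohort. On the log2 scale Sema4g was higher in 200M by 0.47 (SE 0.13, adjusted p = 0.0185) in young mice and 0.46 (SE 0.13, adjusted p = 0.0281) in older mice, and the 200H differences were 0.38 and 0.56 (adjusted p = 0.243 and 0.0144). The young call was lost without WT replicate 2 or u (the library whose column number matches no sample title of its group). The older one was lost without any 1 of the 200M libraries (adjusted p up to 0.0774 and 0.11).

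Sema5a (chr15:32244810-32696341, plus strand) encodes a transmembrane semaphorin with thrombospondin repeats. Levels of Sema5a were 146, 104 and 113 CPM in young WT, 145, 161, 181 and 166 in 200H and 151, 176, 169 and 170 in 200M. Older WT Sema5a lay at 27.6, 33.2, 38.2 and 41.5 CPM, beside 45.5, 52.0, 55.5 and 54.6 in 200H and 74.9, 54.7 and 65.7 in 200M. Its 200M values were above all WT values in each cohort. The rise of Sema5a in 200M was 0.46 (SE 0.10, adjusted p = 0.00321) in young mice and 0.90 (SE 0.15, adjusted p = 0.00102) in older mice on the log2 scale, and the 200H differences were 0.42 and 0.57 (adjusted p = 0.0216 and 0.0103). Sema6a (chr18:47235598-47368870, minus strand) encodes a transmembrane ligand of the class A plexins Plxna2 and Plxna4. Sema6a was at 47.2, 43.5 and 46.5 CPM in young WT pituitary, 59.6, 53.7, 59.5 and 59.3 in 200H and 58.9, 55.5, 60.8 and 65.8 in 200M. In older pituitary Sema6a was at 11.7, 8.85, 9.81 and 9.41 CPM in WT, 10.7, 11.8, 13.7 and 16.2 in 200H and 17.8, 19.4 and 16.8 in 200M. The 200M group stood above WT in both cohorts, and in older pituitary 200H overlapped WT. Sema6a rose by 0.39 (SE 0.08, adjusted p = 0.00383) in young 200M and 0.88 (SE 0.15, adjusted p = 0.0015) in older 200M on the log2 scale, and the 200H differences were 0.33 and 0.41 (adjusted p = 0.0184 and 0.137).

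Sema6c (chr3:95160457-95174024, plus strand) is a further transmembrane class 6 semaphorin. Young WT Sema6c was measured at 3.68, 4.18 and 4.55 CPM, with 5.73, 7.04, 10.0 and 6.42 in 200H and 9.54, 9.32, 9.14 and 8.27 in 200M. For Sema6c in older pituitary the values were 9.93, 16.9, 15.8 and 16.1 CPM in WT, 29.2, 28.3, 27.7 and 28.1 in 200H and 22.6, 21.3 and 26.6 in 200M. The young 200M mean was more than 2 times the WT mean, and in the older cohort the 200H libraries were the highest. On the log2 scale Sema6c was higher in 200M by 1.13 (SE 0.17, adjusted p = 0.000194) in young mice and 0.68 (SE 0.17, adjusted p = 0.0141) in older mice, and the 200H differences were 0.80 and 0.95 (adjusted p = 0.034 and 0.000977). The older call was lost without 200M replicate 3 (adjusted p = 0.0756). Sema6d (chr2:124089969-124667770, plus strand) encodes a ligand of Plxna1. Levels of Sema6d were 44.5, 44.8 and 42.2 CPM in young WT, 61.3, 56.0, 55.5 and 55.0 in 200H and 54.9, 54.7, 57.4 and 54.9 in 200M. Older WT Sema6d lay at 34.1, 28.5, 29.4 and 33.5 CPM, beside 35.1, 37.2, 38.4 and 36.9 in 200H and 41.2, 38.3 and 44.2 in 200M. The groups did not overlap between 200M and WT, with narrow spreads in the young cohort. The rise of Sema6d in 200M was 0.34 (SE 0.07, adjusted p = 0.00377) in young mice and 0.40 (SE 0.11, adjusted p = 0.0216) in older mice on the log2 scale, and the 200H differences were 0.37 and 0.24 (adjusted p = 0.00928 and 0.13). The older call was lost without WT replicate 2 or 200M replicate 1 or 3, and with the trend with transcript length removed (adjusted p up to 0.107).

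Sema7a (chr9:57940112-57962865, plus strand) encodes a semaphorin held to the membrane by a glycolipid anchor, which binds Plxnc1 and integrins. Sema7a was at 5.52, 3.52 and 4.86 CPM in young WT pituitary, 8.86, 11.6, 6.78 and 7.14 in 200H and 9.54, 9.49, 9.67 and 5.43 in 200M. In older pituitary Sema7a was at 9.11, 9.37, 9.01 and 14.8 CPM in WT, 11.1, 10.7, 11.9 and 15.3 in 200H and 17.6, 17.9 and 13.7 in 200M. It is the 1 gene of the 17 whose 200M and WT libraries overlapped, through 200M replicate 4 in the young cohort and WT replicate 4 in the older. Sema7a rose by 0.89 (SE 0.22, adjusted p = 0.00888) in young 200M and 0.64 (SE 0.20, adjusted p = 0.035) in older 200M on the log2 scale, and the 200H differences were 0.88 and 0.21 (adjusted p = 0.0236 and 0.542). The older call was lost without WT replicate 1, 2 or 3 or 200M replicate 1 or 2 (adjusted p up to 0.137). Its receptor gene Plxnc1 (chr10:94790866-94944835, minus strand) also rose. Young WT Plxnc1 was measured at 24.3, 22.2 and 18.6 CPM, with 33.2, 29.9, 28.6 and 25.5 in 200H and 29.1, 29.1, 29.2 and 31.3 in 200M. For Plxnc1 in older pituitary the values were 14.8, 14.5, 14.2 and 14.4 CPM in WT, 8.26, 17.4, 18.8 and 14.7 in 200H and 21.8, 28.1 and 23.1 in 200M. Older 200H replicate 1 was the lowest of all older libraries, and that group spread across WT. On the log2 scale Plxnc1 was higher in 200M by 0.44 (SE 0.11, adjusted p = 0.00717) in young mice and 0.77 (SE 0.12, adjusted p = 0.000935) in older mice, and the 200H differences were 0.42 and 0.02 (adjusted p = 0.0332 and 0.962).

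Plxna2 (chr1:194618218-194816869, plus strand) encodes a receptor for class 6 semaphorins and, with neuropilins, for class 3. Levels of Plxna2 were 64.4, 63.1 and 67.7 CPM in young WT, 85.6, 80.3, 80.8 and 75.6 in 200H and 106, 96.0, 84.2 and 77.0 in 200M. Older WT Plxna2 lay at 33.7, 37.0, 51.4 and 39.0 CPM, beside 67.9, 59.7, 63.6 and 73.3 in 200H and 61.9, 66.8 and 57.5 in 200M. All 200H and 200M libraries lay above WT in both cohorts. The rise of Plxna2 in 200M was 0.48 (SE 0.09, adjusted p = 0.00204) in young mice and 0.65 (SE 0.13, adjusted p = 0.00419) in older mice on the log2 scale, and the 200H differences were 0.30 and 0.73 (adjusted p = 0.0205 and 0.00239). Plxnb1 (chr9:109095389-109119917, plus strand), the receptor gene for Sema4d, went down. Plxnb1 was at 116, 112 and 111 CPM in young WT pituitary, 81.9, 78.5, 85.7 and 74.5 in 200H and 73.6, 73.3, 69.3 and 73.0 in 200M. In older pituitary Plxnb1 was at 254, 285, 272 and 276 CPM in WT, 141, 178, 172 and 177 in 200H and 154, 175 and 142 in 200M. No 200H or 200M library reached the lowest WT library in either cohort. Plxnb1 fell by 0.65 (SE 0.07, adjusted p = 6.03e-06) in young 200M and fell by 0.78 (SE 0.08, adjusted p = 5.63e-05) in older 200M on the log2 scale, and the 200H differences were -0.50 and -0.70 (adjusted p = 0.000501 and 0.000375). Its ligand gene Sema4d was not called, at -0.25 (SE 0.09, adjusted p = 0.0545) in young and -0.14 (SE 0.12, adjusted p = 0.452) in older pituitary.

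Plxnb2 (chr15:89155549-89180788, minus strand), a receptor gene for class 4 semaphorins, had the highest WT level per kilobase among the members in pituitary, 23 ± 0.733 CPM per kb in young and 44.7 ± 4.26 in older. Young WT Plxnb2 was measured at 157, 149 and 148 CPM, with 130, 134, 146 and 127 in 200H and 131, 126, 125 and 124 in 200M. For Plxnb2 in older pituitary the values were 252, 313, 303 and 307 CPM in WT, 222, 249, 264 and 245 in 200H and 218, 241 and 214 in 200M. Every 200M library lay below every WT library, and the falls were small. Plxnb2 fell by 0.26 (SE 0.06, adjusted p = 0.00499) in young 200M and fell by 0.38 (SE 0.09, adjusted p = 0.0101) in older 200M on the log2 scale, and the 200H differences were -0.18 and -0.26 (adjusted p = 0.108 and 0.0912). The older call was lost without 200M replicate 3 (adjusted p = 0.0622).

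Slit1 (chr19:41600257-41743665, minus strand) encodes a secreted ligand that repels axons through Robo receptors. Levels of Slit1 were 31.2, 23.1 and 32.8 CPM in young WT, 38.1, 44.7, 57.1 and 50.7 in 200H and 55.7, 48.1, 60.0 and 47.5 in 200M. Older WT Slit1 lay at 43.6, 44.5, 38.2 and 36.2 CPM, beside 34.7, 61.2, 87.2 and 81.3 in 200H and 83.1, 81.9 and 86.5 in 200M. The 200M libraries were above all WT libraries, while older 200H ran from below WT to the level of 200M. The rise of Slit1 in 200M was 0.86 (SE 0.12, adjusted p = 8.53e-05) in young mice and 1.06 (SE 0.10, adjusted p = 1.35e-05) in older mice on the log2 scale, and the 200H differences were 0.70 and 0.70 (adjusted p = 0.00705 and 0.0594). Slit3 (chr11:35121224-35708507, plus strand) is a related ligand gene known also from vessels and muscle. Slit3 was at 11.1, 8.58 and 9.20 CPM in young WT pituitary, 12.7, 12.5, 18.6 and 13.8 in 200H and 14.3, 13.4, 14.9 and 15.4 in 200M. In older pituitary Slit3 was at 5.11, 6.39, 6.4 and 8.75 CPM in WT, 9.19, 9.17, 7.73 and 11.2 in 200H and 13.8, 14.2 and 13.5 in 200M. The 200M values sat close together above WT in each cohort. Slit3 rose by 0.58 (SE 0.14, adjusted p = 0.00633) in young 200M and 1.06 (SE 0.18, adjusted p = 0.00166) in older 200M on the log2 scale, and the 200H differences were 0.56 and 0.49 (adjusted p = 0.0462 and 0.112). Slit2, the other ligand gene, was not called, at 0.06 (SE 0.07, adjusted p = 0.599) and 0.28 (SE 0.10, adjusted p = 0.0671).

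Epha1 (chr6:42358487-42373268, minus strand) encodes an Eph receptor of epithelia and had the largest change of the 17. Young WT Epha1 was measured at 3.27, 5.17 and 4.44 CPM, with 1.22, 0.859, 1.32 and 1.76 in 200H and 0.776, 1.91, 1.12 and 1.11 in 200M. For Epha1 in older pituitary the values were 7.73, 8.14, 7.41 and 10.9 CPM in WT, 1.28, 1.60, 1.98 and 1.38 in 200H and 1.88, 2.71 and 1.64 in 200M. The WT libraries stood apart from every 200H and 200M library in both cohorts, and 200H and 200M overlapped each other. Epha1 fell by 1.80 (SE 0.32, adjusted p = 0.000905) in young 200M and fell by 1.98 (SE 0.25, adjusted p = 0.000202) in older 200M on the log2 scale. In 200H it changed by -1.75 (SE 0.31, adjusted p = 0.0025) in young and -2.49 (SE 0.22, adjusted p = 1.36e-05) in older pituitary. Epha1 overlaps Zyx on the other strand, so older reads, counted without strand, cannot be told apart there.

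Epha4 (chr1:77367185-77515088, minus strand) encodes a receptor that binds ephrins of both classes. Levels of Epha4 were 9.10, 7.70 and 7.51 CPM in young WT, 10.7, 9.10, 11.8 and 9.73 in 200H and 12.3, 14.4, 13.5 and 12.6 in 200M. Older WT Epha4 lay at 4.97, 2.98, 4.80 and 7.66 CPM, beside 4.54, 8.85, 5.55 and 5.41 in 200H and 8.16, 9.29 and 9.82 in 200M. The 200M libraries lay above WT in both cohorts, by a narrow gap in the older one, where 200H overlapped WT. The rise of Epha4 in 200M was 0.70 (SE 0.14, adjusted p = 0.00199) in young mice and 0.85 (SE 0.27, adjusted p = 0.0437) in older mice on the log2 scale, and the 200H differences were 0.34 and 0.28 (adjusted p = 0.188 and 0.6). The older call was lost without WT replicate 1, 2 or 3 or any 1 of the 200M libraries, and with the trend with transcript length removed (adjusted p up to 0.132). Ephb3 (chr16:21204755-21223305, plus strand) encodes a receptor for class B ephrins. Ephb3 was at 3.48, 2.75 and 2.43 CPM in young WT pituitary, 3.74, 4.38, 4.56 and 3.42 in 200H and 4.50, 4.49, 4.27 and 5.31 in 200M. In older pituitary Ephb3 was at 5.24, 4.99, 6.00 and 4.16 CPM in WT, 7.10, 6.08, 7.92 and 8.48 in 200H and 9.42, 6.71 and 7.77 in 200M. The 200M and WT groups did not overlap, but at these low levels the calls were near the threshold. Ephb3 rose by 0.67 (SE 0.22, adjusted p = 0.0456) in young 200M and 0.66 (SE 0.21, adjusted p = 0.0387) in older 200M on the log2 scale, and the 200H differences were 0.47 and 0.56 (adjusted p = 0.245 and 0.0659). They were lost without WT replicate 2 or u or any 200M library in the young cohort, and without WT replicate 1, 2 or 4 or 200M replicate 1 or 3 in the older. DESeq2, the replicate block and removal of the length trend also ended both calls, and lifting the filter the young one (adjusted p up to 0.328 and 0.158 over all alternatives).

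Unc5d (chr8:28646717-29219636, minus strand) encodes a netrin receptor of the Unc5 family that also binds the adhesion protein FLRT2. Young WT Unc5d was measured at 4.70, 4.07 and 3.70 CPM, with 5.91, 5.32, 8.50 and 9.21 in 200H and 8.07, 7.66, 8.69 and 9.62 in 200M. For Unc5d in older pituitary the values were 1.52, 2.71, 1.80 and 2.95 CPM in WT, 3.14, 4.90, 5.75 and 4.13 in 200H and 5.23, 5.42 and 4.30 in 200M. All 200H and 200M libraries lay above WT in both cohorts. On the log2 scale Unc5d was higher in 200M by 1.02 (SE 0.18, adjusted p = 0.000858) in young mice and 1.12 (SE 0.26, adjusted p = 0.00995) in older mice, and the 200H differences were 0.78 and 0.93 (adjusted p = 0.0495 and 0.0388). The older call was lost without 200M replicate 2 (adjusted p = 0.0564). Of the other netrin receptor genes, Dcc was at -0.08 (SE 0.07, adjusted p = 0.466) and 0.20 (SE 0.23, adjusted p = 0.597) in young and older pituitary, and Unc5a, Unc5b and Unc5c were not called.

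**Figure D3:**
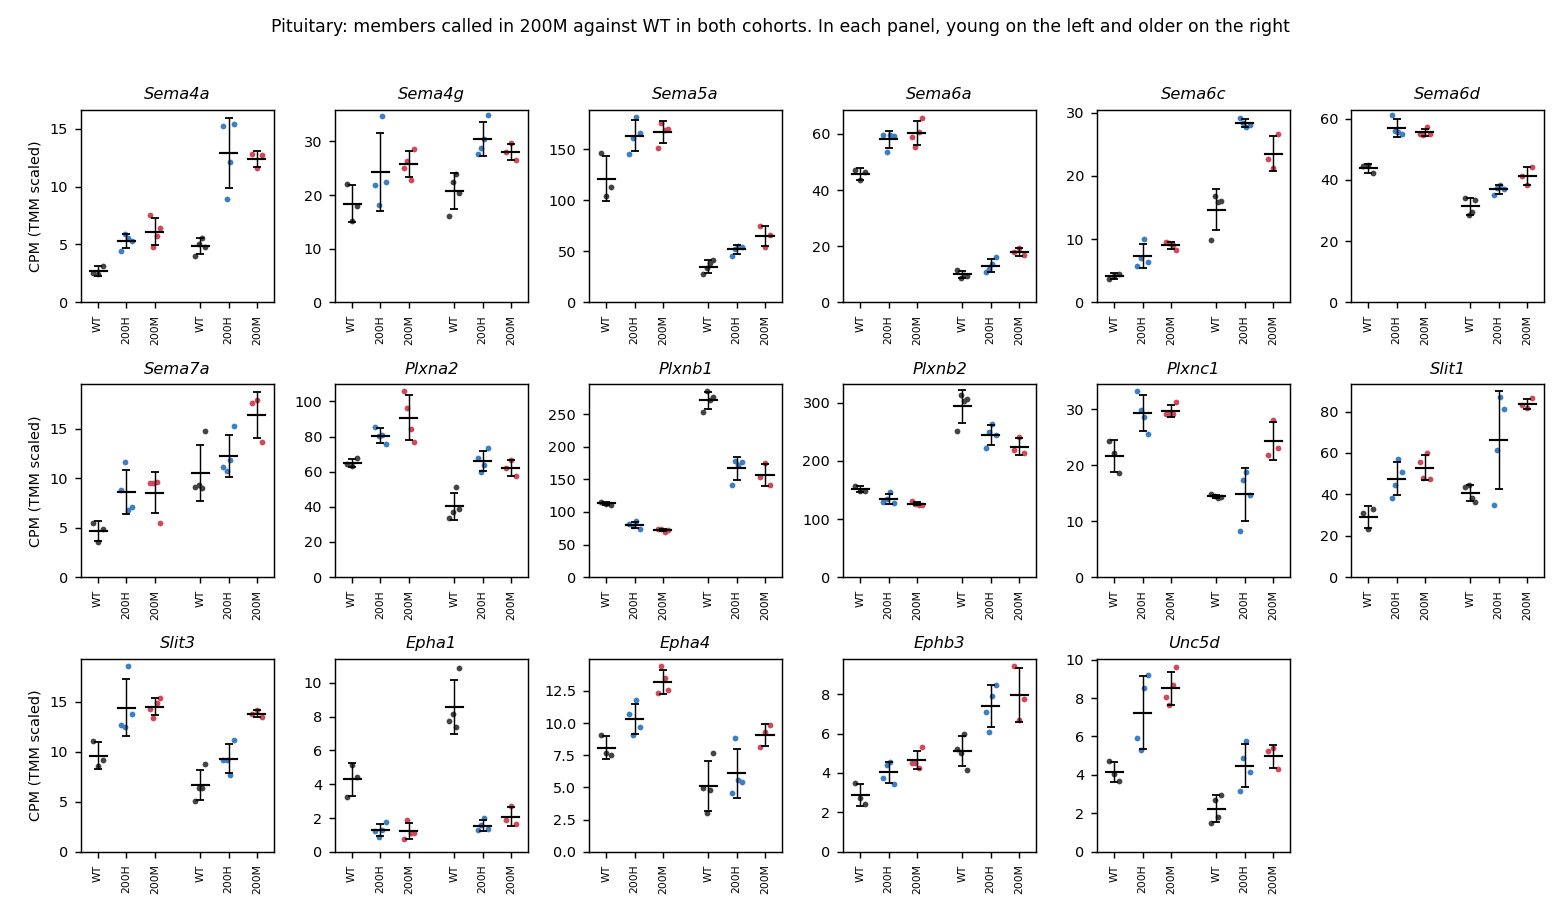
CPM of the 17 members called in 200M against WT in both pituitary cohorts, 1 panel a gene with its own y axis from 0, points for libraries, and bars for the mean and SD of WT, 200H and 200M in young (left) and older (right) pituitary. Epha1, Plxnb1 and Plxnb2 are lower in 200M and the other 14 are higher.

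Epha1, Plxna2, Plxnb1, Sema4a, Sema5a and Slit1 were called in both cohorts under each of the 12 alternative settings tried in each, which include leaving out each library in turn. The other 11 lost the call under at least 1.

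Some members changed in 200M pituitary of 1 cohort. In young pituitary, Robo1, the receptor gene for Slits, fell by 0.31 (SE 0.07, adjusted p = 0.00315), and the class B receptor genes Ephb1 and Ephb2 rose by 1.18 (SE 0.25, adjusted p = 0.0036) and 0.41 (SE 0.12, adjusted p = 0.0223). The class B ligand gene Efnb3 rose there by 0.89 (SE 0.25, adjusted p = 0.0207) and the netrin gene Ntn3 by 0.60 (SE 0.17, adjusted p = 0.0182). Robo1 was at 104, 105 and 111 CPM in young WT, 77.6, 76.1, 78.7 and 74.9 in 200H and 87.0, 89.6, 83.6 and 84.6 in 200M, so the groups stood apart and 200H was the lowest. In older pituitary the change of Robo1 was 0.03 (SE 0.10, adjusted p = 0.88). In the older cohort the class A ligand gene Efna1 fell by 0.50 (SE 0.13, adjusted p = 0.0154), against 0.02 (SE 0.18, adjusted p = 0.957) in the young one. The secreted class 3 semaphorin genes Sema3c and Sema3e rose by 1.13 (SE 0.26, adjusted p = 0.00976) and 0.92 (SE 0.23, adjusted p = 0.0129). Class A receptor genes rose as well, Epha3 by 1.5 (SE 0.36, adjusted p = 0.0122), Epha5 by 0.46 (SE 0.13, adjusted p = 0.0282), Epha7 by 0.74 (SE 0.17, adjusted p = 0.00798) and Epha10 by 0.75 (SE 0.25, adjusted p = 0.047). Ephb6, whose receptor lacks kinase activity, rose by 0.64 (SE 0.21, adjusted p = 0.0444). Since the cohort difference was called for none of those tested, and Ntn3 has no older row, a call in 1 cohort does not show that the cohorts differ. Epha3 was at 0.552 to 0.801 CPM in older WT, few counts in these libraries, and at 1.55 to 2.72 in 200M. It passed the filter on low counts only through 200M, where it is high, and was not tested in older 200H against WT. Its call therefore depends in part on that entry. Epha10 did not pass the filter in young pituitary, where it lay between 0 and 0.716 CPM. Ntn3 overlaps Tbc1d24 on its own strand, so reads shared with that gene are uncertain. Ephb1 overlaps 9630041A04Rik on the other strand, which leaves its older reads uncertain, as these were counted without strand, and not the young ones.

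Values in every library are added for 4 of these, chosen after they were seen, 3 of which hold an 8mer printed above. Efna1 was at 23, 23.6, 20.8 and 22.9 CPM in older WT, 24.8, 19, 19.8 and 18.6 in 200H and 16.5, 17.7 and 13.3 in 200M. All its 200M libraries lay below all WT libraries, and the 200H group overlapped WT. Sema3c was at 1.24, 1.31, 1.2 and 1.42 CPM in older WT, 0.465, 1.81, 1.39 and 0.848 in 200H and 2.51, 3.10 and 2.86 in 200M. At these low levels 200M stood above both other groups and 200H spread around WT. Like Epha3, Sema3c passed the filter in 200M against WT through its 200M libraries, so its call has the same limit. Epha7 was at 10.2, 10.8, 11.8 and 15.5 CPM in older WT, 19.9, 18, 13.7 and 13.3 in 200H and 19.2, 18.5 and 22.7 in 200M, with 200M above WT. In young pituitary Epha7 was at -0.08 (SE 0.12, adjusted p = 0.696) and Sema3c at 0.52 (SE 0.30, adjusted p = 0.252). Ephb1 was at 2.66, 1.54 and 1.90 CPM in young WT, 3.13, 4.38, 3.54 and 4.14 in 200H and 4.19, 4.83, 5.55 and 3.95 in 200M, so that every 200H and 200M library lay above WT.

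In 200H against WT, 14 of 63 members changed in young pituitary, 11 higher and 3 lower (22.2% beside 12.3% of all genes, of which 6.56% higher and 5.72% lower). In older pituitary 12 of 60 changed, 10 higher and 2 lower (beside 12.2% of all genes, with 7.09% higher and 5.14% lower). The young count was 8, 6 and 6 without WT replicate 1, 2 and u and 9 without 200H replicate 4. The young calls are Epha1, Plxnb1 and Robo1 lower and Sema4a, Sema5a, Sema6a, Sema6c, Sema6d, Sema7a, Plxna2, Plxnc1, Slit1, Slit3 and Unc5d higher. The older calls are Epha1 and Plxnb1 lower and Sema4a, Sema4g, Sema5a, Sema6c, Plxna2, Unc5d, Epha5, Ephb2, Robo2 and Nrp2 higher. Of these, Robo2, a Slit receptor gene, Nrp2, a co-receptor gene for class 3 semaphorins, and Ephb2 were called in 200H and not in 200M, at 0.46 (SE 0.11, adjusted p = 0.0182), 0.49 (SE 0.12, adjusted p = 0.0194) and 0.93 (SE 0.24, adjusted p = 0.0232) in 200H and 0.07 (SE 0.14, adjusted p = 0.779), 0.27 (SE 0.12, adjusted p = 0.146) and 0.38 (SE 0.19, adjusted p = 0.19) in 200M. The comparisons of 200H and 200M with WT share their WT libraries. With the trend with transcript length removed, 200H against WT gave 6 higher and 5 lower in young and 5 higher and 3 lower in older pituitary. The members' median in 200H then went from 0.21 to 0.13 in young and from 0.22 to 0.16 in older pituitary on the log2 scale. The excess of rises over falls in 200H was thus smaller under that setting.

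The direct comparison of 200M with 200H called 0 of 62 members in each pituitary cohort by edgeR, where 0.0383% (young) and 0.121% (older) of all genes were called. At an unadjusted p under 0.05 there were 5 members in young pituitary (8.06%, with 5.92% of all genes) and 16 in older (25.8%, with 10.6%). DESeq2 called 0 in each, and without the filter on low counts edgeR called 1 and 7. Leaving out older 200H replicate 2 gave 6 calls. The median difference of the members was 0.06 in young and 0.03 in older pituitary on the log2 scale.

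In hypothalamus Zeb1 was not called and 0 members were called in any of the 6 comparisons by edgeR. In young hypothalamus, where 61 members were tested, 0.02% of all genes were called in 200M against WT, 0.0202% in 200H against WT and 0% in 200M against 200H, and DESeq2 called 0 members in each. At an unadjusted p under 0.05 there were 5, 2 and 3 members (8.20%, 3.28% and 4.92%), with 5.65%, 3.93% and 4.60% of all genes, so the members were near the background. Their median log2 fold change in 200M was 0.07. These are the shallowest libraries, and the part of depth in these counts was not tested.

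In older hypothalamus 65 members were tested, and 0.00622%, 0% and 0% of all genes were called in the same 3 comparisons. At an unadjusted p under 0.05 there were 19, 6 and 22 members (29.2%, 9.23% and 33.8%), with 18.1%, 2.80% and 19.5% of all genes. The members' median in 200M against WT was -0.16 where that of all genes was 0.02, and 14 of 65 were positive (21.5%, with 53.0% of all genes). The smallest p was that of Dcc, the netrin receptor gene, which was at 11, 13.7, 20.8 and 16.4 CPM in WT, 12.9, 12.6, 23.1 and 17.3 in 200H and 9.26, 4.22 and 6.00 in 200M. All 200M values of Dcc were below WT and 200H, and the log2 difference was -1.26 (SE 0.26, adjusted p = 0.101), which missed the threshold. Slit1 was at -0.56 (SE 0.15, adjusted p = 0.123) there, opposite in sign to its pituitary values. DESeq2 called 12 members lower in 200M (4.77% of all genes called), and edgeR without the filter on low counts 13 lower (3.48%). In 200M against 200H they called 8 and 15, and in 200H against WT DESeq2 called 0. Leaving out WT replicate 1 gave 4 calls and 200M replicate 1 gave 1. In this tissue log2 fold changes ran with transcript length: the medians of all genes in 4 equal classes of exon length, from shortest to longest, were 0.18, 0.07, -0.02 and -0.16, and 36 of the 65 members lie in the longest class. With the length trend removed the members' median was -0.05. In older pituitary the same classes were at -0.12, -0.04, 0.01 and 0.10, and removing the trend took the members' median from 0.28 to 0.18 with 17 higher and 5 lower. The summed pituitary hormone genes in older hypothalamus were at 47.3 to 95.6 CPM in WT and 78.7 to 165 in 200M, and their part in these values was not tested.

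The difference between tissues was then tested directly, as the 200M effect in pituitary minus that in the other tissue, with both tests of a cohort sharing its pituitary libraries and libraries taken as separate mice. Against hypothalamus, 14 of 67 members differed in the young cohort, 11 more positive and 3 more negative in pituitary (10.5% of all genes differed), and 23 of 66 in the older, 21 and 2 (17.5%). With the length trend removed the older count was 14. Both cohorts gave Epha1, Epha4, Plxna2, Plxnb1, Sema4a, Sema5a, Sema6a, Sema6c, Sema7a, Slit1 and Unc5d. The largest positive differences in the older cohort were Slit1 at 1.61 (SE 0.20, adjusted p = 2.34e-05), Slit3 at 1.54 (SE 0.25, adjusted p = 0.000344) and Unc5d at 1.52 (SE 0.25, adjusted p = 0.000344). Epha1 in hypothalamus was at 0 to 0.214 CPM in young WT and 0.471 to 1.07 in older WT, and it was below the filter there in both cohorts. It entered these tests through pituitary, so its values of -4.09 and -1.98 rest on few counts, and it was the 1 member called against hypothalamus or ovary of which this is so. Against ovary, 14 of 67 differed in the young cohort, 11 and 3 (10.1%), and 11 of 66 in the older, 8 and 3 (5.77%). The young count was 6, 8 and 9 without pituitary WT replicate 2, pituitary 200M replicate 2 and ovary 200M replicate 1. The older one was 4, 2, 4, 4 and 7 without pituitary WT replicate 2, 200M replicates 1, 2 and 3 and ovary WT replicate 2. Sema3d, Plxna2, Epha1, Sema6d and Sema7a differed in both. Plxna1, Slit2, Unc5c, Dcc, Ntn4 and Sema3a were called in such a test and in no comparison of genotypes.

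In young ovary 5 of 66 members changed in 200M against WT, 2 higher and 3 lower (7.58% beside 2.58% of all genes). Sema3d, a secreted class 3 semaphorin gene, was at 80.2, 66.5, 61.9 and 69.1 CPM in WT, 18.1, 40.9, 21 and 67.1 in 200H and 15.8, 45.2, 13.0 and 15.5 in 200M. Every 200M library lay below WT, and 200H ran from the level of 200M to that of WT. In 200M Sema3d was lower, at -1.60 on the log2 scale (SE 0.28, adjusted p = 0.0117). Ephb2 fell by 0.64 (SE 0.14, adjusted p = 0.0276) and Plxna4, a receptor gene for class 3 and class 6 semaphorins, by 0.47 (SE 0.10, adjusted p = 0.0215). Ephb2 was at 13.5, 13.3, 13.2 and 13.9 CPM in WT and 6.84, 9.56, 8.83 and 8.96 in 200M, and Plxna4 at 108, 100, 122 and 122 and 66.8, 93.5, 78.8 and 83.1. In neither gene did 200M reach WT, while 200H spread over both, from 6.80 to 13.9 for Ephb2. Sema3g, a semaphorin gene of vessels, rose by 0.53 (SE 0.11, adjusted p = 0.0274) and Epha5 by 0.67 (SE 0.16, adjusted p = 0.0406). Levels of Sema3g were 16.8, 19.5, 19.1 and 14.8 CPM in WT and 27.7, 22.9, 25.2 and 24.5 in 200M, and those of Epha5 7.64, 6.70, 6.28 and 6.64 and 10.1, 9.16, 10.8 and 12.6, again with no overlap. The count was 1, 3, 3 and 1 without WT replicates 1 to 4, and it was 0, 9 and 1 without 200M replicates 1, 2 and 3. Counts of 0 were found in 200H against WT (0.0051% of all genes) and in 200M against 200H (0%), where edgeR without the filter called 1 each and DESeq2 0 each. At an unadjusted p under 0.05 there were 5 and 2 members (7.69% and 3.08%), with 7.05% and 3.36% of all genes.

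In older ovary 2 of 62 members changed in 200M against WT (3.23% beside 2.71%), 0 in 200H against WT (0% of all genes, and 0 by DESeq2) and 1 in 200M against 200H (1.61% beside 1.61%). In 200H against WT 6 members had an unadjusted p under 0.05 (9.68%, with 6.59% of all genes). The 1 that fell was again Sema3d, at 21.5, 63.8, 50.6 and 59.6 CPM in WT, 75.9, 231, 14.8 and 17.2 in 200H and 7.32, 3.24, 5.24 and 8.11 in 200M. All 200M libraries lay below all others, whereas 200H spread from below WT to far above it. On the log2 scale the difference from WT was -3.0 (SE 0.39, adjusted p = 0.00853), and against 200H it was -3.83 (SE 0.90, adjusted p = 0.0828). Sema6c was at 42.5, 27.3, 27.0 and 37.9 in WT, 37.8, 31.8, 34.7 and 25.8 in 200H and 69.6, 76.8, 61.1 and 59.4 in 200M. Its 200M libraries stood above both other groups, by 1.00 (SE 0.18, adjusted p = 0.0258) against WT and 1.03 (SE 0.15, adjusted p = 0.0147) against 200H. In young ovary Sema6c was at 0.38 (SE 0.15, adjusted p = 0.218). The ovarian genes given in every library were chosen after their values were seen. The count against WT was 1 without WT replicate 2, 3 or 4 or 200M replicate 1 or 4, and 4 without 200M replicate 2, and that against 200H was 0 without 200H replicate 2 or 200M replicate 1. DESeq2 called 5 against WT and 6 against 200H. The 9 ovarian markers summed to 8800 to 20700 CPM in older WT and 3140 to 7990 in 200M, with Star lower by 3.77 on the log2 scale, and macrophage markers to 222 to 441 and 463 to 882. In young ovary the ovarian sums were 2130 to 2600 and 1590 to 2350. Their part in the guidance genes was not tested, nor was that of the breeding history of older mice.

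**Figure D4:**
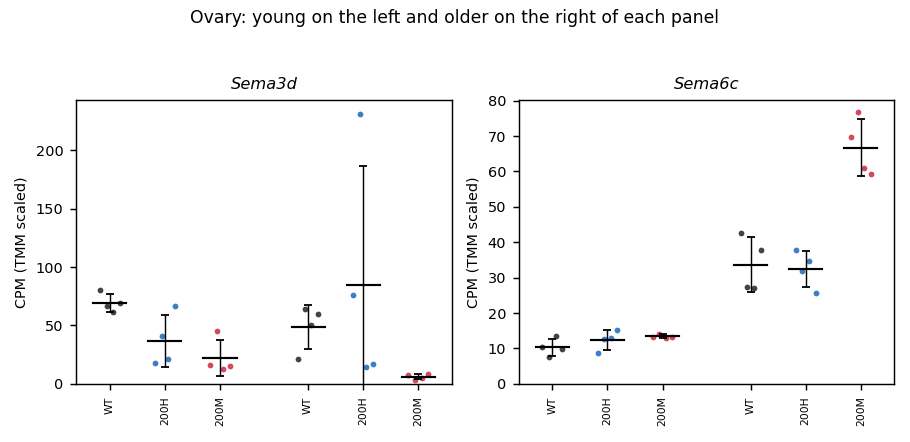
CPM of Sema3d and Sema6c in ovary, with points for libraries and bars for the mean and SD of WT, 200H and 200M in young (left) and older (right) mice, n = 4 each. In each cohort every 200M library of Sema3d lies below every WT library, and for Sema6c the 200M libraries stand above WT in older ovary at 59.4 to 76.8 CPM.

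Changes in pituitary can be set beside which guidance genes each tissue uses, taken as the WT mean CPM per kilobase of exon model. In young pituitary the highest were Plxnb2 at 23 ± 0.733 CPM per kb (SD, n = 3), Unc5a at 21.9 ± 2.20, Plxna3 at 19.1 ± 0.522, Nrp1 at 15.5 ± 0.909 and Efna5 at 15.3 ± 1.21. Plxnb2 and Unc5a did not differ beyond their spread, nor did Nrp1 and Efna5. Older pituitary led with Plxnb2 at 44.7 ± 4.26 (n = 4), Plxnb1 at 31.4 ± 1.5, Unc5a at 31.0 ± 3.59, Plxna3 at 27.5 ± 2.71 and Sema3f at 14.5 ± 2.24, with Plxnb1, Unc5a and Plxna3 within their spread. The Unc5 receptor gene Unc5a, Plxna3 and Nrp1, all abundant, were not called in any comparison.

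In hypothalamus the class B ephrin gene Efnb3 was the highest, at 42.6 ± 2.07 CPM per kb in young and 55.9 ± 4.30 in older WT (n = 4 each), above all others. After it came Sema5a at 28.3 ± 2.32, Sema6d at 27.1 ± 0.625, Sema6a at 24.9 ± 0.574 and Slit1 at 21.5 ± 1.36 in the young cohort, of which Sema5a and Sema6d did not differ beyond their spread. In the older cohort it was followed by Sema4a at 33.2 ± 2.96, Slit1 at 30.1 ± 6.88, Sema6b at 29.5 ± 3.73 and Sema4g at 25.1 ± 4.58. Neighbours in this order did not differ beyond their spread, whereas the libraries of Sema4a and Sema4g did not overlap. Both Slit1 and Sema4a, higher in 200M pituitary, were at lower WT levels there: in young pituitary Slit1 was at 4.96 ± 0.888 and Sema4a at 0.791 ± 0.117, beside 21.5 ± 1.36 and 12.0 ± 0.952 in young hypothalamus, with each tissue scaled separately and no test made.

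In young ovary Sema5a stood far above the rest at 139 ± 13.9 CPM per kb (n = 4), followed by Plxnc1 at 40.0 ± 5.86, Nrp1 at 35.5 ± 4.99, Plxnb2 at 27.8 ± 0.994 and Sema7a at 26.0 ± 2.5. Older ovary led with Sema7a at 70.3 ± 8.16, Plxnb2 at 59.0 ± 3.62, Sema5a at 44.1 ± 11, Plxnc1 at 38.2 ± 10.4 and Efnb1 at 36.3 ± 3.90. Plxnc1 and Nrp1 did not differ beyond their spread in young ovary, nor did Plxnb2 and Sema7a, and in older ovary the same held for Sema7a and Plxnb2 and for Sema5a, Plxnc1 and Efnb1. Levels of the cohorts are on different chemistries and were not compared.

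**Figure D5:**
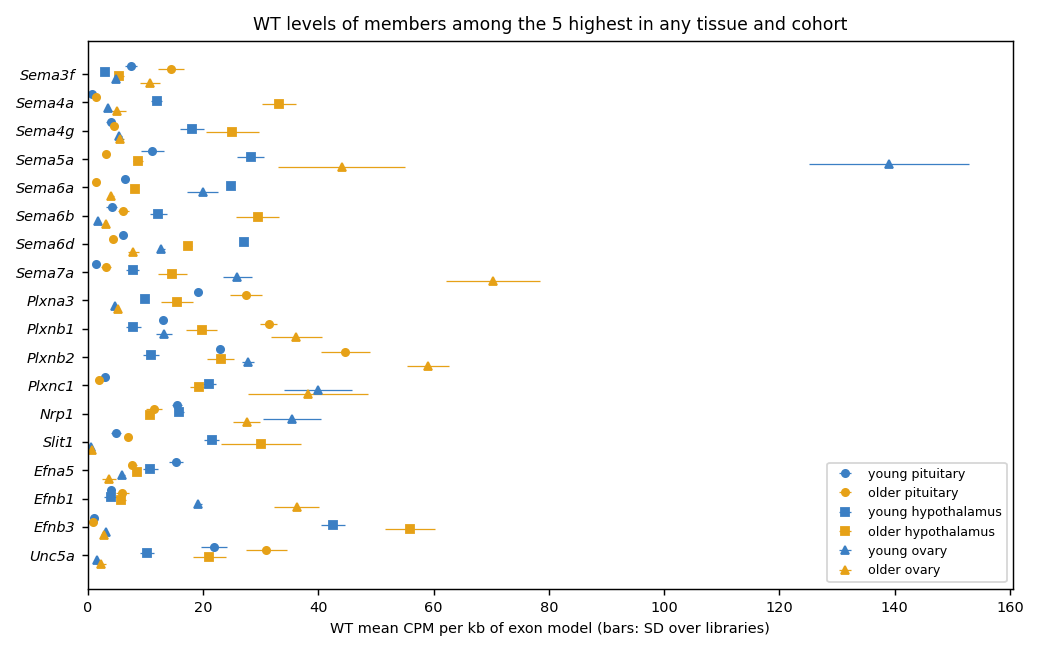
WT mean CPM per kilobase of exon model (x axis) of the 18 members that are among the 5 highest in any tissue and cohort, with SD bars, circles for pituitary, squares for hypothalamus and triangles for ovary, and blue for young and orange for older mice. Sema5a in young ovary at 139 is the highest, Sema7a leads in older ovary at 70.3 and Efnb3 in hypothalamus at 42.6 and 55.9.

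Genes that carry guidance signals inside the cell were followed with a list of 78 receptors, kinases, exchange factors and cytoskeletal genes. In 200M pituitary 18 rose and 7 fell of 77 tested in the young cohort and 20 rose and 3 fell of 77 in the older, where 21.5% and 21.4% of all genes were called, with medians of 0.09 and 0.19 against 0.00 and -0.01 for all genes. In both cohorts 19 were called in the same direction, 16 higher and 3 lower, and 14.3% of all genes were. Cntn2, a contactin of axons, rose by 2.68 (SE 0.34, adjusted p = 4.35e-05) and 2.56 (SE 0.27, adjusted p = 3.86e-05), and Gap43, a growth cone protein gene, by 2.38 (SE 0.33, adjusted p = 0.000101) and 3.64 (SE 0.29, adjusted p = 4.82e-06). Plxdc1, the channel gene Trpc5 and Chn1, whose product turns off Rac below Eph receptors, rose by 1.24, 1.07 and 0.63 in young and 1.41, 1.67 and 0.68 in older pituitary. Dscam, a netrin receptor gene, fell by 0.79 and 0.80 on the log2 scale. In hypothalamus 0 of the list were called, in young ovary 3 were higher and 5 lower of 76, and in older ovary 1 and 1 of 74, where 2.58% and 2.71% of all genes were called.

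Members with and without the features printed above can be described side by side in 200M pituitary. The 10 with a miR-200 8mer had a median of 0.27 on the log2 scale in young and 0.26 in older pituitary, with 2 higher and 0 lower and 4 higher and 1 lower. The members without one had 0.24 over 52 tested, with 16 higher and 4 lower, and 0.31 over 51, with 17 higher and 3 lower. The 10 members with an E-box in a window had 0.13 and 0.12, with 2 higher and 3 lower in young and 1 higher and 2 lower in older pituitary. Members with windows and no such letters had 0.27 over 42 tested, with 12 higher and 1 lower, and 0.36 over 41, with 17 higher and 2 lower. Over all genes 11.5% were higher and 10% lower in young and 11.7% and 9.77% in older pituitary, and these groups of members were not tested against each other.

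Of the 69 members 35 were called in at least 1 comparison of genotypes and 41 when the tests between tissues are added. The share of all genes called over the same tests together was not counted, so these totals have no background beside them. The remaining 28 include 8 semaphorins (Sema3b, Sema3f, Sema4b, Sema4c, Sema4d, Sema4f, Sema5b and Sema6b), with pituitary log2 fold changes in 200M of -0.25 to 0.38. They also include Plxna3, Plxnb3 and Plxnd1 (-0.19 to 0.15), Nrp1 (0.07 and 0.08), Robo3 and Robo4 (0.05 to 0.22), Efna2, Efna3, Efna4 and Efna5 (-0.28 to 0.15), Efnb1 and Efnb2 (0.09 to 0.25) and Epha2, Epha6 and Epha8 (-0.56 to 0.45). The last are Ephb4 (0.20 and 0.21), Ntn1 (-0.18 and 0.23), Unc5a and Unc5b (-0.23 to 0.36) and Ntn5. These ranges cover the members tested. Ntn5 did not pass the filter in any comparison. Reads of Ephb4, Ntn5 and Unc5a could be shared with Zan, Sec1 and Hk3, which overlap them on the other strand, where counting ignored strand.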

How the data were processed

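Total RNA of pituitary, hypothalamus and ovary was sequenced in both cohorts, and the authors deposited raw counts per gene beside their own normalized values and DESeq2 results. Per the submitters' processing notes and the study's methods, reads were aligned to mm10/GRCm38 with STAR 2.7.1a and counted with HTSeq 0.9.1 (older pituitary and hypothalamus) or featureCounts, and DESeq2 1.18 and 1.38.3 were used. Only counts were used here, and 141 deposited columns (normalized values, the authors' fold changes and p-values, and 3 WT count columns whose header repeats a name) were not. Symbols came from the deposited young hypothalamus table, which alone defined the members. Other IDs were named from a reference list of gene names, and both sources together named 99.54% of 55964 gene IDs. Each tissue and cohort was fitted with edgeR 4.0.16 in R 4.3.3 (TMM scaling, filterByExpr, quasi-likelihood F test, adjustment over all genes tested, called under 0.05), with limma 3.58.1 and, as an alternative, DESeq2 1.42.0. The SE is the log2 fold change over the root of F. CPM was scaled by TMM across the libraries of each tissue within a cohort. Differences between tissues or cohorts were interaction terms in 1 fit over both tables. Positions and exon lengths are GENCODE M21 on GRCm38.

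The members and gene lists were chosen with earlier results of these data known. Members called in 200M against WT in both pituitary cohorts in 1 direction were given in every library, other called members with fold change and adjusted p, the 5 highest WT levels per kilobase in each tissue and cohort, the 6 signalling genes with the smallest p among those called in both, and the rest by family. Alternatives were RLE size factors, no filter on low counts, DESeq2, the replicate number as a block, each library left out and, added after seeing the data, removal of the trend with transcript length. The lowest chi-square per degree of freedom between libraries of a group was 1.87 over 99 pairs, so none was a copy. The scripts were tested on simulated data.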

Additional observations from a re-analysis of the deposited data

Results flagged for a closer look

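Among 80 groups of 4 libraries checked, for the members given in every library, 11 had 1 library apart from the other 3 by Dixon's criterion, where chance alone gives about 1 in 20 groups. In young pituitary these were 200M replicate 3 of Plxnb1, the lowest at 69.3 CPM, 200M replicate 4 of Plxnc1, the highest at 31.3, 200H replicate 2 of Sema6a, the lowest at 53.7, 200H replicate 1 and 200M replicate 3 of Sema6d, the highest at 61.3 and 57.4, and 200M replicate 4 of Sema7a, the lowest at 5.43. In older pituitary they were 200H replicate 1 of Plxnb1, the lowest at 141 CPM, WT replicate 1 of Plxnb2, the lowest at 252, WT replicate 1 of Sema6c, the lowest at 9.93, and WT replicate 4 of Sema7a, the highest at 14.8. In young ovary 200M replicate 2 was the highest for Sema3d, at 45.2 CPM.

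The 200M effect (log2 fold change against WT) differed between tissues by the edgeR interaction test for the members named here, with each difference given as pituitary minus the other tissue. Older pituitary against hypothalamus gave positive differences for Slit1 (1.61), Slit3 (1.54), Unc5d (1.52), Dcc (1.46), Sema4a (1.44), Sema3c (1.44), Sema5a (1.27), Epha4 (1.17), Plxnc1 (1.10), Sema6a (1.05), Plxna2 (1.01), Sema7a (0.83), Sema6c (0.76), Epha7 (0.75), Ephb2 (0.74), Plxna1 (0.71), Ephb6 (0.70), Slit2 (0.61), Sema6d (0.59), Unc5c (0.57) and Nrp2 (0.53), and negative ones for Plxnb1 (-0.59) and Epha1 (-1.98). Young pituitary against hypothalamus gave Ephb1 (1.15), Sema6c (1.09), Sema4a (1.05), Unc5d (0.96), Sema7a (0.93), Efnb3 (0.81), Slit1 (0.76), Epha4 (0.74), Sema5a (0.54), Sema6a (0.51) and Plxna2 (0.39) above 0 and Plxnb2 (-0.47), Plxnb1 (-0.86) and Epha1 (-4.09) below it. Epha1 did not pass the filter on low counts in hypothalamus in either cohort, so its values against that tissue rest on few counts.

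Older pituitary against ovary gave Sema3d (3.50), Slit1 (1.84), Sema5a (1.35), Sema7a (1.33), Ntn4 (1.21), Epha7 (1.18), Plxna2 (1.06) and Sema6d (0.78) above 0 and Plxnb1 (-0.83), Efna1 (-0.89) and Epha1 (-1.90) below it. Young pituitary against ovary gave Sema3d (1.65), Sema4a (1.33), Ephb2 (1.05), Ephb1 (0.95), Sema7a (0.87), Sema3a (0.81), Sema6c (0.76), Sema6a (0.47), Plxna2 (0.47), Sema6d (0.46) and Nrp2 (0.39) above 0 and Plxnb2 (-0.39), Epha5 (-0.78) and Epha1 (-1.75) below it. The sign of a difference does not say in which tissue the gene moved: Sema3d was lower in 200M ovary and was at 9.56 ± 0.889 CPM (SD, n = 3) in young WT and 9.86 ± 0.969 (n = 4) in young 200M pituitary.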

How the results depend on the processing

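Counts of members called within 1.5 times of the reported ones are not repeated here. Without the filter on low counts, 1 member was called in young and 7 in older pituitary 200M against 200H, 13 in older hypothalamus 200M against WT and 15 in 200M against 200H, 1 each in young ovary 200H against WT and 200M against 200H, and 2 in older ovary 200M against 200H. DESeq2 called 12 and 8 in those older hypothalamus comparisons and 5 and 6 in older ovary 200M against WT and against 200H. With the length trend removed (added after seeing the data) older ovary 200M against 200H gave 2 and older pituitary against hypothalamus 14. Leaving out 1 library at a time gave 6 to 15 in young pituitary 200H against WT, 16 to 29 in older pituitary 200M against WT, 0 to 6 in older pituitary 200M against 200H, 0 to 4 in older hypothalamus 200M against WT, 0 to 9 in young ovary 200M against WT, 1 to 4 in older ovary 200M against WT, 0 to 1 in older ovary 200M against 200H, 6 to 17 in young and 2 to 13 in older pituitary against ovary.

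With the replicate number as a block, young ovary 200M against WT gave 1 and older ovary 200M against WT and 200M against 200H gave 0 each, while the replicate block gave 16 and 26 in young and older pituitary 200M against WT (the young fit drops library u). Same-numbered libraries did not deviate together in any comparison (r from -0.65 to 0.43, and no comparison in which each library correlated best with its own number), so the numbers do not pair them. Under the block Plxnb2, Plxnc1, Sema4g, Sema6a, Sema6d, Slit3 and Ephb3 lost the young pituitary call and Ephb3 the older one.

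Plxnc1 in older 200H pituitary, 0.02 and not called, turned to -0.015 with the block, -0.066 without the length trend and -0.080 and -0.096 without 200H replicate 2 and 3 (-0.096 to 0.229 when 1 library was left out), where 200H replicate 1 lies lowest at 8.26 CPM, and the cause was not tested. Of the single-gene values, 145 kept direction and call under DESeq2 (9 lost it), 150 without the filter (5 lost), 154 under RLE (2 lost), 119 with the length trend removed (34 lost, 1 reversed), 67 with the block (26 lost, 1 reversed) and 1274 when 1 library was left out (314 lost, 2 reversed). The part of depth in the young hypothalamus counts was not tested.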
